A study of Mus musculus with 7 samples.

Results

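Cycling macrophages are described here as 1021 of 39537 cells in mouse malignant peripheral nerve sheath tumors (MPNST). They were chosen from each cell's unique molecular identifiers (UMIs, the count of distinct RNA molecules). A cell had to hold at least 500 genes with at most 10% of UMIs from mitochondrial genes. It then had to have at least 2 UMIs of Csf1r and Adgre1 together, at least 10 UMIs of C1qa, C1qb and C1qc per 10000, no UMI of Cd3e, Cd3d or Cd3g, and at most 1 UMI of the tumor genes Tafa1, Unc5c and Col11a1. This gate held 9592 macrophages, of which 1021 had at least 2 UMIs of Mki67 and Top2a together (cycling), 757 had 1 (intermediate) and 7814 had 0 (non-cycling).

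The tumors were subcutaneous allografts of JW23.3, an Nf1 and Trp53 mutant mouse MPNST line, in wild-type female C57/B6 mice of 5 to 6 weeks. Mice were randomized on day 7 after implantation. The 4 irradiated tumors received 5 daily fractions of 2 Gy behind lead shielding that left the palpable tumor exposed, the 3 control tumors received none, and all were harvested on day 21 and dissociated with papain. Both groups carry the same tumor line, so the comparisons concern 1 tumor genotype, and the tumor was the replicate.

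Macrophages are largely non-dividing cells, yet many tissue macrophages can divide in place under CSF1, the ligand of the Csf1r receptor. Dividing cells first copy their DNA in S phase, using helicase, polymerase and nucleotide-supply genes, and then build the spindle in G2 and M phase, using cyclin B with Cdk1, kinesins and centromere proteins. Mki67 encodes the Ki-67 antigen of dividing cells and Top2a encodes the topoisomerase that untangles sister chromatids.

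Promoters of many G2/M genes carry a CHR element (TTTGAA) and CCAAT boxes, whereas promoters of S phase genes often carry E2F sites. The 120 bases before the annotated start are shown for the genes that chose the cells (Mki67, Top2a), for 3 G2/M genes (Cdk1, Cdc20, Ube2c) and for 1 S phase gene (Mcm6, a subunit of the replicative helicase), to show these letters in place. Sequences are from RefSeq (GRCm38.p6), read 5′ to 3′ on the strand of the gene, and capitals mark CHR, CCAAT and E2F letters on either strand.
Mki67 (chr7:135716380-135716499, minus strand): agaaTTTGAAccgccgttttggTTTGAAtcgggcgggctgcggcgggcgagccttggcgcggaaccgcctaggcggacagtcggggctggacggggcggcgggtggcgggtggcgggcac
Top2a (chr11:99024190-99024309, minus strand): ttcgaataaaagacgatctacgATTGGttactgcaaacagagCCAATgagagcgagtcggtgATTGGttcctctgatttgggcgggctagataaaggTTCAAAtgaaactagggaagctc
Cdk1 (chr10:69352913-69353032, minus strand): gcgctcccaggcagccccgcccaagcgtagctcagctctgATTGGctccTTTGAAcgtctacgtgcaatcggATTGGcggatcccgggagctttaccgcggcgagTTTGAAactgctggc
Cdc20 (chr4:118437344-118437463, minus strand): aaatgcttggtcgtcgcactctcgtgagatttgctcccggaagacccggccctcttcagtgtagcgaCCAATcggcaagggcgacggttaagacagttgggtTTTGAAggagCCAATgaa
Ube2c (chr2:164769809-164769928, plus strand): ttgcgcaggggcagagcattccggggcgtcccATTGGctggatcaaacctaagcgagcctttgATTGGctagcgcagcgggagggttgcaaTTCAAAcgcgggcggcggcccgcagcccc
Mcm6 (chr1:128359706-128359825, minus strand): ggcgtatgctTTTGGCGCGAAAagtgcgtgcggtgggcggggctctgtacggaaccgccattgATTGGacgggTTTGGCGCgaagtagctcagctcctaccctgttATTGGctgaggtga

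The 250 bases before the start were searched on both strands for TTTGAA, for CCAAT and for the E2F letters TTTGGCGC, TTTCGCGC, TTTGCCGC and TTTCCCGC. CCAAT can share 1 base with TTTGAA or with the E2F letters, and E2F letters on opposite strands can overlap each other, as in Mcm6. Of the G2/M phase list, 42 of 52 genes matched a promoter, and 26.2% of these held both TTTGAA and CCAAT, against 6.45% of all 27025 genes with a promoter. CCAAT alone was in 76.2% of the G2/M list, 62.5% of the 32 matched S phase genes and 37.5% of all genes. E2F letters were in 28.1% of the S phase genes, 2.38% of the G2/M genes and 2.16% of all genes. TTTGAA, with or without CCAAT, was in 28.6% of the G2/M genes, 15.6% of the S phase genes and 18.3% of all genes. It was in 33.3% of 12 matched resident-type macrophage genes and 21.4% of 14 macrophage identity genes, 2 lists described below. Both TTTGAA and CCAAT were in 16.7% and 7.14% of these. A match describes the letters only.

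The libraries held 53496570 to 153044123 UMIs. Irradiated tumors 1 to 4 gave 129, 109, 126 and 179 cycling macrophages and control tumors 1 to 3 gave 122, 170 and 186, with 1559162 to 3315273 UMIs summed per tumor. Libraries fell on either side of 7000 deposited cells, with irradiated 1, control 2 and control 3 above and the others below, so within each side both groups were present. This boundary was set here and is not in the labels. Control 1, with 6134 cells, lay closer to it than irradiated 2, 3 and 4 (2859 to 3780). Over all pairs of libraries, 190 cell barcodes were shared, of which 0 belonged to cycling macrophages. Control 1 stood apart, since 41.0% of its cycling macrophages held 1 UMI of the 3 tumor genes of the gate, against 7.82% to 15.1% in the other tumors.

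Phase genes outside the rule were read against the number of Mki67 and Top2a UMIs per cell. The summed level of 42 S phase genes, in CPM (UMIs per 1000000 UMIs of the pooled cells), had a median over tumors of 604 CPM in cells with 0 UMIs, 1101 CPM with 1 UMI (just outside the threshold), 2177 CPM with 2 UMIs (just inside, 225 cells), 4131 CPM with 5 to 9 UMIs and 3334 CPM with 10 or more. The summed level of 52 G2/M phase genes went from 281 to 485, 1086, 3585 and 7857 CPM over the same classes. The S phase list thus had its highest median at 5 to 9 UMIs, whereas the G2/M list was highest in the 417 cells with 10 or more UMIs. Cells with 1 UMI had levels of both lists above those of cells with 0 UMIs.

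**Figure D1:**
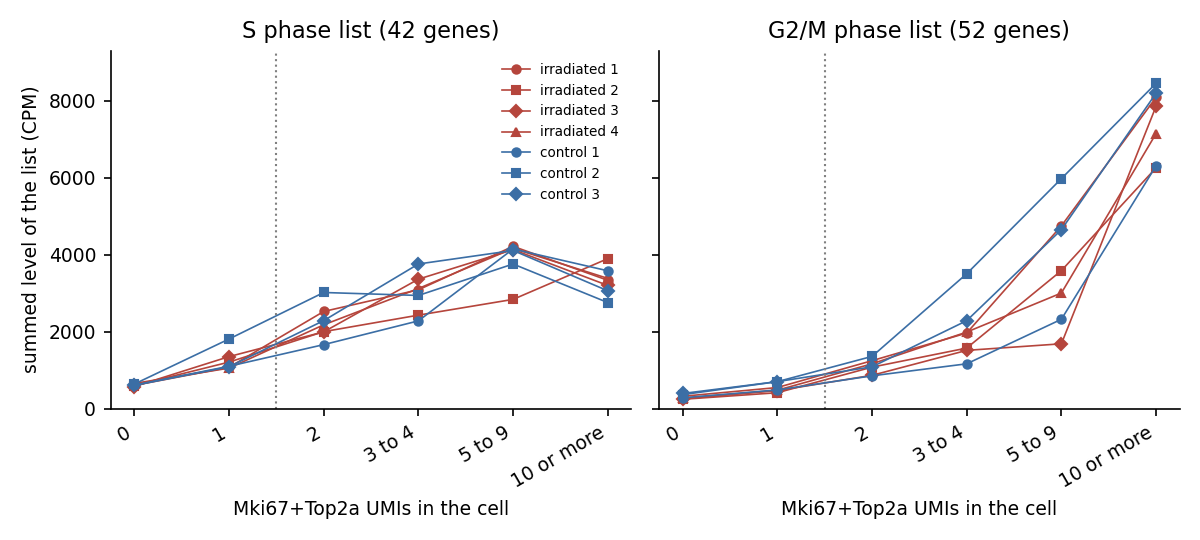
Summed level in CPM of the S phase list (left) and of the G2/M phase list (right) in macrophages grouped by their UMIs of Mki67 and Top2a; each line is 1 tumor (red, irradiated; blue, control), and the dotted line marks the threshold for cycling cells. The G2/M list reached a median of 7857 CPM in cells with 10 or more UMIs, against 281 CPM in cells with 0.

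Of the cycling macrophages, 92.5% to 98.2% per tumor had at least 10 UMIs of the S and G2/M lists together, against 11.6% to 40.6% of non-cycling macrophages. Cycling cells were also deeper, with a median of 9688 to 20404.5 UMIs per tumor against 4382.5 to 11815 in non-cycling cells. Comparisons were therefore repeated against as many non-cycling cells of matched depth in each tumor. Xist, expressed from the inactive X chromosome of female cells, was found in 94.4% to 100% of cycling macrophages, and the hosts were female. Scrublet, a doublet caller, marked 6 of the 1021 cells.

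Macrophage genes outside the rule were still detected in cycling cells. After thinning each cell to 5000 UMIs, Lyz2 (lysozyme) was found in a median of 97.5% of cycling and 98.4% of non-cycling cells per tumor, Ms4a7 in 94.1% and 96.7%, Cd68 in 75.6% and 79.3%, and Trem2 in 83.8% and 90.0%. In gated tumor cells at the same depth, which should lack these genes, the medians were 8.96%, 1.76%, 0.877% and 1.201%. That gate asked for at least 3 UMIs of Tafa1, Unc5c and Col11a1 and none of Csf1r, Adgre1, Ptprc, Cd3e, Cd3d or Cd3g. Cells carrying macrophage RNA were thus partly left out beforehand. Without thinning Lyz2 was found in 98.4% and Cd68 in 94.4% of cycling cells, and in 98.3% and 88.7% of non-cycling cells. After thinning Cdk1 was found in 47.5% of cycling and 4.78% of non-cycling cells, and Ccnb1 (cyclin B1) in 17.8% and 0.329% (69.4% and 8.06% for Cdk1, and 36.5% and 0.838% for Ccnb1, without thinning). The T cell gene Trac and the B cell gene Cd79a were at a median of 0% of cycling cells.

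Cells with more G2/M than S list UMIs were called G2/M-rich. They were 50.4%, 51.4%, 50.8% and 49.2% of cycling macrophages in irradiated tumors 1 to 4, and 44.3%, 60.6% and 57.5% in control tumors 1 to 3. The values of the irradiated tumors lay close together, inside the range of the controls. Cdk1 and Pcna belong to the lists that made this split, so their levels only describe it. Cdk1 was at 233 ± 35.1 CPM in G2/M-rich and 91.0 ± 10.3 CPM in S-rich cells (SD, n = 7 tumors), and Pcna, the sliding clamp of replication, at 165 ± 17.5 and 353 ± 34.4 CPM. Ccnd1 (cyclin D1), which is in neither list, was at 207 ± 54.2 CPM in G2/M-rich and 435 ± 61.1 CPM in S-rich cells and was lower in the G2/M-rich cells of 7 of 7 tumors. Ms4a7 (826 ± 121 against 1127 ± 211 CPM) and Lyz2 (3145 ± 1541 against 4677 ± 1330 CPM) were also lower in the G2/M-rich cells of 7 of 7 tumors. Cd68, Trem2 and Cdkn1a differed by less than their SD between the phases.

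Cycling macrophages were next set against non-cycling macrophages of the same tumor. The rule itself used this contrast, so the values are a description with no test. Each gene is given as a log2 ratio of CPM, scaled by the trimmed mean of M values (TMM) with a prior count of 2, as a mean and SD over 7 tumors. A gene was counted as higher or lower where the mean passed 1 on the log2 scale with 1 sign in all 7 tumors. Of 11157 genes outside the rule, 645 (5.78%) were higher and 121 (1.08%) were lower in cycling cells. The median of all genes was -0.03, and 2190 genes were higher and 2170 lower in 7 of 7 tumors whatever the size. Against depth-matched non-cycling cells, 542 of 9669 genes were higher and 36 were lower. Without cells that held a tumor-gene UMI the counts were 631 and 132.

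All 42 S phase genes and all 52 G2/M phase genes that were measured were higher, with medians of 2.38 and 4.74. Nusap1, a spindle-binding protein, had the highest ratio among genes of at least 50 CPM (6.26 ± 0.34). It was at 157, 113, 129 and 120 CPM in the cycling cells of irradiated tumors 1 to 4 and at 120, 179 and 173 CPM in those of control tumors 1 to 3, against 1.08 to 2.64 CPM in non-cycling cells. The ranges of the 2 gates lay far apart in every tumor. Kif15 (6.03 ± 0.42) and Kif11 (5.97 ± 0.44), mitotic kinesins, came next, followed by Ccna2, cyclin A2 (5.69 ± 0.31). Pclaf, which binds the Pcna clamp, was at 380 to 496 CPM in cycling and at 6.78 to 12.2 CPM in non-cycling cells (5.54 ± 0.26). Rrm2, the regulatory subunit of ribonucleotide reductase, followed at 5.41 ± 0.51, Cenpf, a kinetochore protein, at 5.28 ± 0.37, and Prc1, which bundles midzone microtubules, at 5.28 ± 0.49.

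Genes that supply the dividing cell followed. Of 24 genes for chromatin proteins and tubulins, 21 were higher (median 1.65), led by H2ax, a histone variant of DNA damage sites (4.20 ± 0.33), H1f5, a linker histone (4.01 ± 0.39), and Stmn1, a microtubule destabilizer (3.92 ± 0.24). H1f2 was the 1 member below 0, at -0.73. Of 22 nucleotide synthesis genes, 11 were higher (median 1.08), with the thymidylate genes Tk1 (4.05 ± 0.23) and Tyms (3.75 ± 0.24) behind Rrm2. Of 31 DNA repair genes, 17 were higher (median 1.07), among them the homologous recombination genes Brca1 (4.21 ± 0.38) and Bard1 (3.39 ± 0.29). Prkdc was at 0.08 ± 0.32, Xrcc5 at 0.14 ± 0.77 and Xrcc6 at 0.79 ± 0.51, genes that act in end joining.

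**Figure D2:**
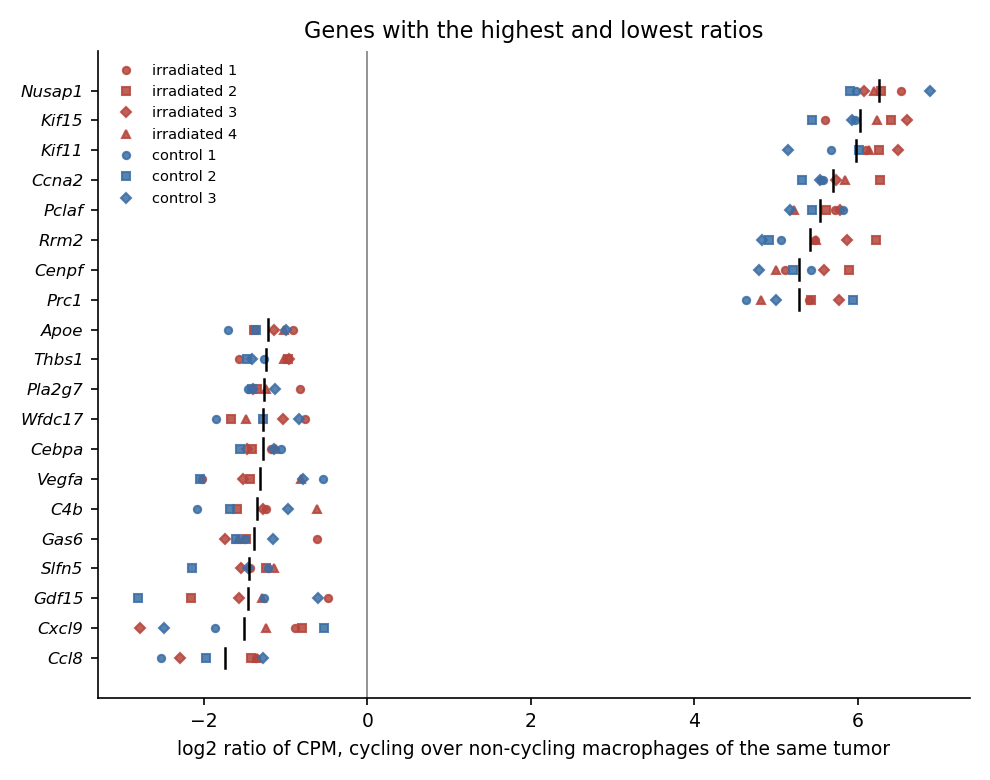
Log2 ratio of CPM in cycling over non-cycling macrophages of the same tumor (horizontal axis) for the 8 genes with the highest and the 12 with the lowest mean among genes of at least 50 CPM; points are tumors (red, irradiated; blue, control) and black bars are means. Nusap1 stood highest at 6.26 and Ccl8 lowest at -1.74.

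Regulators of cell cycle entry split. Of 25 measured, 11 were higher and 0 were lower. The higher ones included Foxm1 (5.05), the factor that drives G2/M transcription, the atypical repressors E2f7 (4.72) and E2f8 (3.36), Mybl2 (4.37), E2f1 (1.23), Cdk2 (1.32) and Cdk4 (1.07). The inhibitors of Cdk4 and Cdk6, Cdkn2c (3.01 ± 0.41) and Cdkn2d (1.66 ± 0.21), were higher as well, as was the pocket protein Rbl1 (2.14 ± 0.25).

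The D-type cyclins, which link growth signals to Cdk4 and Cdk6, were not. Ccnd1 was at 282, 380, 334 and 363 CPM in cycling macrophages of irradiated tumors 1 to 4 and at 328, 225 and 214 CPM in control tumors 1 to 3. In non-cycling macrophages it was at 243, 410, 313 and 396 CPM and at 355, 227 and 171 CPM. The ranges overlapped, with a log2 ratio of 0.04 ± 0.18. Ccnd3 (-0.23 ± 0.27) and Ccnd2 (-0.38 ± 0.27) were slightly below 0, the latter in 7 of 7 tumors. Cdkn1a, the p21 inhibitor, was at 201 to 370 CPM in cycling and at 191 to 542 CPM in non-cycling cells (-0.27 ± 0.41). Myc was at 0.51 ± 0.38 and above 0 in 6 of 7 tumors.

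Of 20 p53 target genes, 0 were higher and 2 were lower, Gdf15, a stress-induced cytokine (-1.45 ± 0.82), and Plk2, a kinase (-1.02 ± 0.40). Against depth-matched cells these were at -0.71 and -0.61, and neither passed 1. The median of the list was -0.22 and Btg2, an antiproliferative gene, was at -0.73 ± 0.15.

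Macrophage identity genes were lower by a small amount. All 16 of them had a mean below 0 (median -0.44), and 15 were lower in 7 of 7 tumors, but 0 passed 1. The phagocytic receptor Mertk was at -0.94 ± 0.16, with 143 to 218 CPM in cycling and 268 to 407 CPM in non-cycling cells, so the gates did not overlap. Lyz2 was at -0.89 ± 0.34, Fcgr4 at -0.86 ± 0.35 and Cd14 at -0.80 ± 0.16. Against depth-matched cells the median of the list was -0.32.

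Among growth factor receptors and transcription factors, 3 of 19 were lower. Cebpa, a myeloid differentiation factor, was at 53.4, 57.2, 42.8 and 59.8 CPM in cycling cells of irradiated tumors 1 to 4 and at 68.5, 39.4 and 81.4 CPM in controls, against 117 to 179 CPM in non-cycling cells (-1.28 ± 0.20). No cycling value reached the lowest non-cycling one. Csf3r, the receptor of granulocyte colony-stimulating factor (-1.09 ± 0.31), and the repressor Bhlhe41 (-1.03 ± 0.40) were the others, and all 3 were between -0.78 and -0.97 against depth-matched cells. The transcription factor Maf was at -0.58 ± 0.16 and Csf2rb, the shared receptor chain of GM-CSF, at -0.49 ± 0.16, each lower in 7 of 7 tumors.

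The resident-type list, genes of tissue macrophages that clear debris, had the lowest median among lists with at least 3 genes measured. Of 11 genes, 6 were lower (median -1.04), and 3 of 10 were lower against depth-matched cells (median -0.71), where 6 monocyte genes had a median of -0.75. Ccl8, a chemokine, was at 367, 138, 136 and 217 CPM in cycling cells of irradiated tumors 1 to 4 and at 83.1, 109 and 332 CPM in controls. In non-cycling cells of the same tumors Ccl8 was at 942, 371, 664 and 552 CPM and at 479, 430 and 802 CPM (-1.74 ± 0.51). The ratio was below 0 in every tumor. Igf1, an insulin-like growth factor (-1.76 ± 0.64), and Gas6, the ligand of Mertk (-1.38 ± 0.39), were also lower, as were Cd163, the hemoglobin scavenger receptor (-1.71), F13a1 (-1.11 ± 0.47) and the selenium carrier Selenop (-1.04). The mannose receptor Mrc1 was at -0.50 ± 0.21, with 389 to 903 CPM in cycling and 577 to 1155 CPM in non-cycling cells.

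Other genes at the low end were Cxcl9, a T cell chemokine (-1.51 ± 0.88), the Schlafen gene Slfn5 (-1.45 ± 0.34), complement C4b (-1.35 ± 0.48), the angiogenic factor Vegfa (-1.30 ± 0.61), Wfdc17 (-1.27 ± 0.42), the lipoprotein-associated phospholipase Pla2g7 (-1.26 ± 0.22), Thbs1 (-1.24 ± 0.26) and the lipid carrier Apoe (-1.22 ± 0.28). Apoe was at 4889 to 9393 CPM in cycling and at 10139 to 18035 CPM in non-cycling cells. Against depth-matched cells Apoe was at -0.80, Thbs1 at -0.86, Vegfa at -0.99 and C4b at -0.89. Of the monocyte genes, Ly6c2 was at -1.22 ± 1.05 with 1 tumor above 0, and the chemokine receptor Ccr2 was at -0.15 ± 0.26.

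Of 8 MHC class II genes, which present antigen to CD4 T cells, 0 passed 1. Cd74, the class II chaperone, was at 3479, 1160.2, 1749 and 1646 CPM in cycling cells of irradiated tumors 1 to 4 and at 1135, 1602 and 2261 CPM in controls. In non-cycling cells it was at 6453, 2574, 2319 and 2776 CPM and at 1002, 3727 and 4622 CPM (-0.75 ± 0.49). It was lower in the cycling cells of every tumor except control 1. The median of the list was -0.68, and -0.26 against depth-matched cells.

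Of 30 type I interferon response genes, 0 passed 1 (median -0.34, and -0.13 against depth-matched cells), with Mx1 at -0.72 ± 0.39. Of 18 type II genes, Cxcl9 was the 1 that passed. Tap1 (0.46 ± 0.18), the peptide transporter, and the immunoproteasome genes Psmb9 (0.35) and Psmb8 (0.24) were higher in the cycling cells of 7 of 7 tumors, whereas 4 type II genes were lower in 7 of 7. That 3 of 18 were higher is near the 2190 of 11157 over all genes. Dissociation stress genes had a median of -0.42, and -0.17 against depth-matched cells, with Hspa1a at -0.92 ± 0.38. The lipid-associated and lysosomal list had a median of -0.46, with Ctsd (cathepsin D) at -0.90 ± 0.27, and the inflammatory and hypoxic list one of -0.36, with Il1b at -0.88 ± 0.15.

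**Figure D3:**
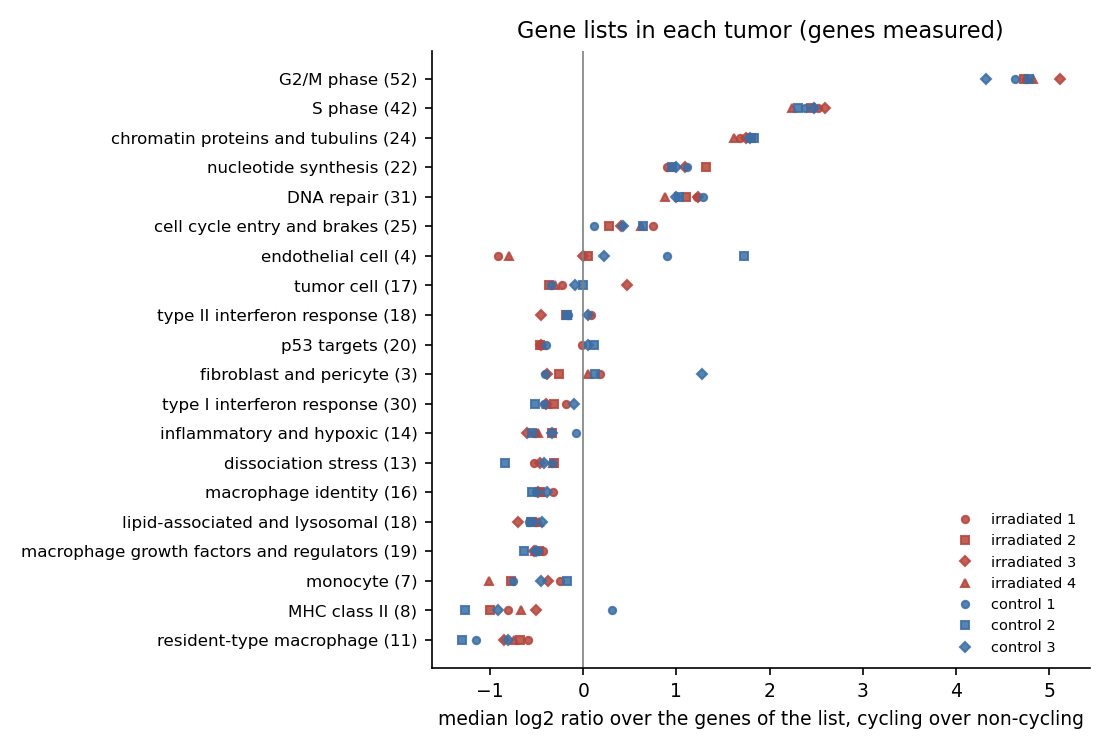
Median log2 ratio of cycling over non-cycling macrophages over the genes of each list (horizontal axis), 1 point per tumor (red, irradiated; blue, control), with the number of genes measured in parentheses. Lists with fewer than 3 genes measured are not drawn; of those shown, the G2/M list had the highest median over its genes (4.74) and the resident-type list the lowest (-1.04).

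Markers of other cells stayed low. The 18 tumor cell genes summed to 107 to 533 CPM in cycling macrophages and to 128 to 638 CPM in non-cycling ones, against 19768 to 25868 CPM in gated tumor cells, and 0 of 17 measured passed 1. In control 1, however, 54.9% of cycling and 24.0% of non-cycling macrophages held at least 10 UMIs of these genes, against 1.08% to 3.97% of cycling macrophages in the other tumors. T and NK cell genes summed to 5.80 to 11.2 CPM in cycling macrophages, against 3285 to 5981 CPM in gated T cells. Granulocyte genes summed to 22.9 to 46.2 CPM in 5 tumors, but to 159 CPM in control 1 and 437 CPM in control 2. In each of those 2 tumors 1 cycling cell held most of these UMIs, 339 of 402 in control 1 and 724 of 757 in control 2, and without it the sums were 25.3 and 19.2 CPM. B cell genes summed to 12.6 to 22.4 CPM, dendritic cell genes to 2.41 to 41.7 CPM, endothelial genes to 7.70 to 62.9 CPM, fibroblast and pericyte genes to 5.43 to 122 CPM, and mast and erythroid genes to at most 12.7 CPM.

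The share of cycling cells among gated macrophages was then compared between groups. It was 8.06%, 13.6%, 13.5% and 15.6% in irradiated tumors 1 to 4, with 95% Wilson intervals from 6.83% to 9.50% for the lowest and from 13.6% to 17.8% for the highest. It was 11.9%, 8.73% and 8.73% in control tumors 1 to 3. The groups overlapped, and the means of 12.7% ± 3.22 (SD, n = 4) and 9.77% ± 1.81 (SD, n = 3) differed by 2.91 percentage points (two-sided exact permutation test over 35 splits, P = 0.2, adjusted P = 0.3 over 3 share tests). The smallest P this design allows is 0.0286. The intervals cover counting error only.

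The share moved with depth. The 3 libraries with over 7000 cells had the lowest median depth in cycling macrophages and also the lowest shares (8.06%, 8.73% and 8.73%). Irradiated minus control was -0.665 percentage points among those libraries (1 against 2 tumors) and 2.37 among the others (3 against 1). After each cell was thinned to 5000 UMIs, which left out 94 to 1030 shallower cells per tumor, the shares were 8.37%, 8.73%, 10.2% and 10.1% in irradiated and 7.76%, 11.98% and 10.2% in control tumors. The difference then had the opposite sign, at -0.616 percentage points (exact permutation test, P = 0.629). Most cells left out were non-cycling. In control 2, 146 of 170 cycling and 687 of 1660 non-cycling cells were kept, and in irradiated 2, 105 of 109 and 533 of 620. Thinning thus also changed which cells were counted, and the part of this in the change of sign was not tested.

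For the G2/M-rich share the mean over irradiated tumors was 50.4% ± 0.938 (SD, n = 4), that over controls 54.1% ± 8.68 (SD, n = 3), and their difference -3.70 percentage points (exact permutation test, P = 0.343). The difference was -8.67 among libraries with over 7000 cells and 6.18 among the others, so its sign was not the same. Without control 1 it was -8.63 (exact permutation test, P = 0.0667, the smallest possible).

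**Figure D4:**
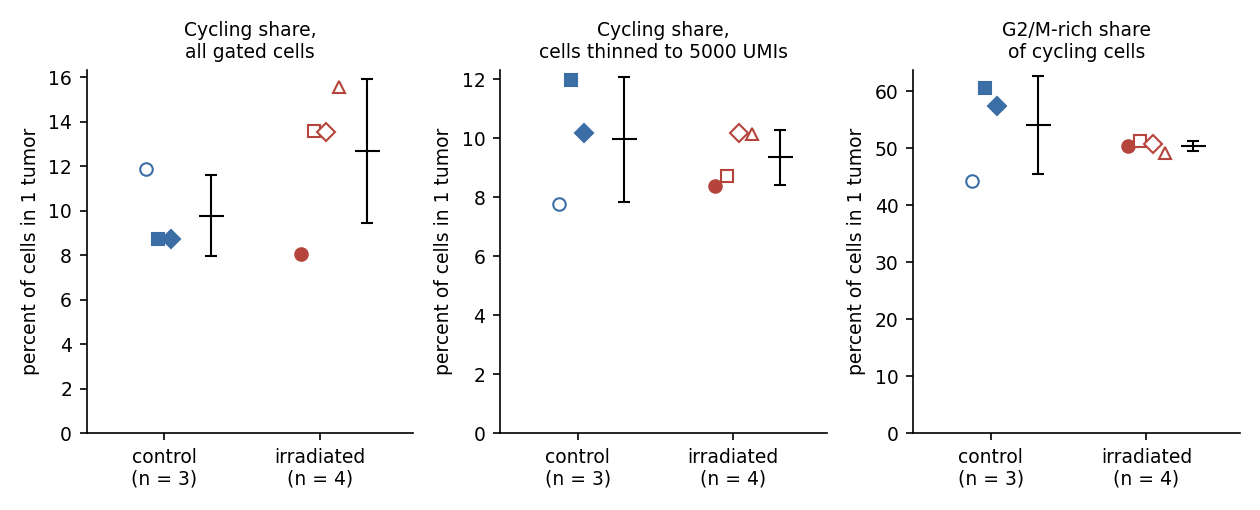
Percent of cells per tumor, from left to right: cycling share of gated macrophages, the same after thinning to 5000 UMIs per cell, and G2/M-rich share of cycling macrophages; filled symbols are libraries with over 7000 cells and open symbols the others, and bars are mean ± SD (n = 3 control and 4 irradiated tumors). The means were 9.77% and 12.7% before thinning and 9.97% and 9.35% after it, where cells of fewer than 5000 UMIs were left out.

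Gated tumor cells gave a reference for the share within the same tumor. At 5000 UMIs per cell, 8.65% to 15.5% of tumor cells and 7.76% to 11.98% of macrophages were cycling by the same 2 genes. The share was lower in macrophages in 5 of 7 tumors, by 2.49 percentage points on average (SD 2.78), which did not pass the test (two-sided exact sign-flip permutation test, P = 0.0781, adjusted P = 0.234). Without thinning the difference was -12.2 percentage points and negative in 7 of 7 tumors (exact permutation test, P = 0.0156), but the median depth of tumor cells was 14474.5 to 31570 UMIs, above that of macrophages.

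Gene levels in cycling macrophages were compared between irradiated and control tumors on UMIs summed per tumor (edgeR quasi-likelihood test, Benjamini-Hochberg adjustment). Of 10038 genes outside the rule, 0 (0%) passed an adjusted P of 0.05, and 626 had an unadjusted P under 0.05. DESeq2 called 16 genes, 11 higher and 5 lower. The higher ones included Rsad2 and Stat2 of the type I interferon list and Iigp1 and Cxcl10 of the type II list. Ccl5, Gm4951, Acod1 and Cd69, which are in neither list, were also higher. The 5 lower ones were Klf4, Mt2, Rasal2, Lum and Col4a2. Without irradiated 1 edgeR called 9 genes, the type I gene Ifit3 among them. Without irradiated 3 it called 3, and without control 1 or control 3 it called 1 each. In non-cycling macrophages 0 of 12060 genes (0%) passed, with 686 at an unadjusted P under 0.05 and 0 by DESeq2, and edgeR called 2 without irradiated 1.

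The gene with the smallest P in cycling macrophages was Ccl5, a chemokine for T cells and monocytes. It was at 120, 84.9, 63.2 and 99.8 CPM in irradiated tumors 1 to 4 and at 34.0, 32.1 and 32.8 CPM in control tumors 1 to 3. The groups did not overlap, and the log2 fold change was 1.45 ± 0.20 (SE, edgeR adjusted P = 0.203). In non-cycling cells it was 0.41 ± 0.44, and the difference between gates did not pass (edgeR adjusted P = 0.967). Over 14 alternative settings its log2 fold change was 1.30 to 1.64, and it passed in 6 of them, DESeq2 (adjusted P = 1.17e-05) and fits without irradiated 1 or irradiated 3 included (range of adjusted P 1.83e-07 to 1.00). Gm4951, an interferon-inducible GTPase gene, was at 42.02, 33.5, 30.8 and 67.5 CPM in irradiated and at 11.5, 9.76 and 13.3 CPM in control tumors (log2 fold change 1.89 ± 0.30, edgeR adjusted P = 0.260).

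Of the 5 genes with the smallest P in cycling macrophages, those below controls were Mt2, Pdlim1 and Cd34. Mt2, a metallothionein, was at 4.46, 5.66, 2.53 and 5.24 CPM in irradiated and at 14.6, 14.9 and 14.6 CPM in control tumors (log2 fold change -1.72 ± 0.28, edgeR adjusted P = 0.260). Pdlim1 was at 1.91 to 4.64 against 10.3 to 11.1 CPM and Cd34, a stem and endothelial cell antigen, at 0.637 to 2.95 against 7.11 to 8.87 CPM (edgeR adjusted P = 0.368 for both). Genes of other cells moved alongside. In cycling macrophages 12 of 13 tumor cell genes had a log2 fold change below 0 (median -0.77). Their 18-gene sum was 107 to 464 CPM in irradiated and 387 to 533 CPM in control tumors. Without the cell highest for them in each tumor it was 102 to 316 and 173 to 499 CPM, so the groups overlapped more. Endothelial genes summed to 7.70 to 25.2 CPM in irradiated and to 27.7 to 62.9 CPM in control tumors, and to 6.44 to 21.9 and 11.99 to 28.6 CPM without the cell highest for them in each tumor. Fibroblast and pericyte genes summed to 5.43 to 33.4 and to 27.1 to 122 CPM (both genes tested below 0, median log2 fold change -2.23), and to 4.85 to 23.4 and 14.04 to 48.6 CPM without the highest cell. Their part in these differences was not tested.

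Interferon response genes pointed one way. All 30 type I genes measured in cycling macrophages had a log2 fold change above 0 (median 0.94, against -0.00 over all genes). By edgeR 0 passed the adjusted test, whereas the DESeq2 calls included Rsad2 and Stat2. In 8 of 30 the irradiated tumors lay above every control tumor, as did 3.90% of all genes tested. Rsad2 (viperin, an antiviral enzyme) was at 171, 302, 134 and 267 CPM in irradiated and at 86.9, 29.3 and 58.6 CPM in control tumors (log2 fold change 1.87 ± 0.44, edgeR adjusted P = 0.649). Oasl1 was at 81.5, 159, 77.6 and 271 CPM and at 65.6, 54.0 and 46.6 CPM (1.40 ± 0.51, edgeR adjusted P = 0.785). Both genes were without overlap between groups. The summed level of the list was 3235, 6578, 4282 and 6663 CPM in irradiated and 3928, 2243 and 2995 CPM in control tumors, and irradiated 1 lay below control 1. Among libraries with over 7000 cells (1 against 2 tumors), and among the others (3 against 1), each irradiated tumor was above each control tumor. This rests on the side of control 1 (6134 cells). Counted with the larger libraries, it would lie above irradiated 1.

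All 17 type II interferon genes also had a log2 fold change above 0 in cycling macrophages (median 0.76). In 8 of 17 the irradiated tumors lay above every control tumor, as did 3.90% of all genes tested. Iigp1, an immunity-related GTPase, was at 39.2 to 128 CPM in irradiated and at 12.6 to 29.2 CPM in control tumors (1.67 ± 0.51, edgeR adjusted P = 0.715). It was among the genes that DESeq2 called. Gbp5, a guanylate-binding protein, was at 13.9 to 30.2 and at 6.32 to 10.6 CPM (1.23 ± 0.32, edgeR adjusted P = 0.577). Cxcl9 overlapped between groups, at 22.3 to 142 and at 3.55 to 28.4 CPM. The summed level was 1247 to 2181 CPM in irradiated and 835 to 1136 CPM in control tumors. In non-cycling macrophages, which come from the same tumors, the medians were 0.94 for 30 type I and 0.91 for 18 type II genes. There the irradiated tumors lay above every control tumor in 0 of 30 and 3 of 18, against 305 of 12060 genes tested. The median of the difference between gates was 0.01 for type I and -0.10 for type II genes. Of the monocyte genes, 6 of 6 had a log2 fold change above 0 in cycling (median 0.72) and 7 of 8 in non-cycling macrophages (median 1.28), and 0 passed the adjusted test. The monocyte sum in cycling macrophages was 359 to 917 CPM in irradiated and 369.96 to 572 CPM in control tumors. Its part in the interferon difference was not tested.

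**Figure D5:**
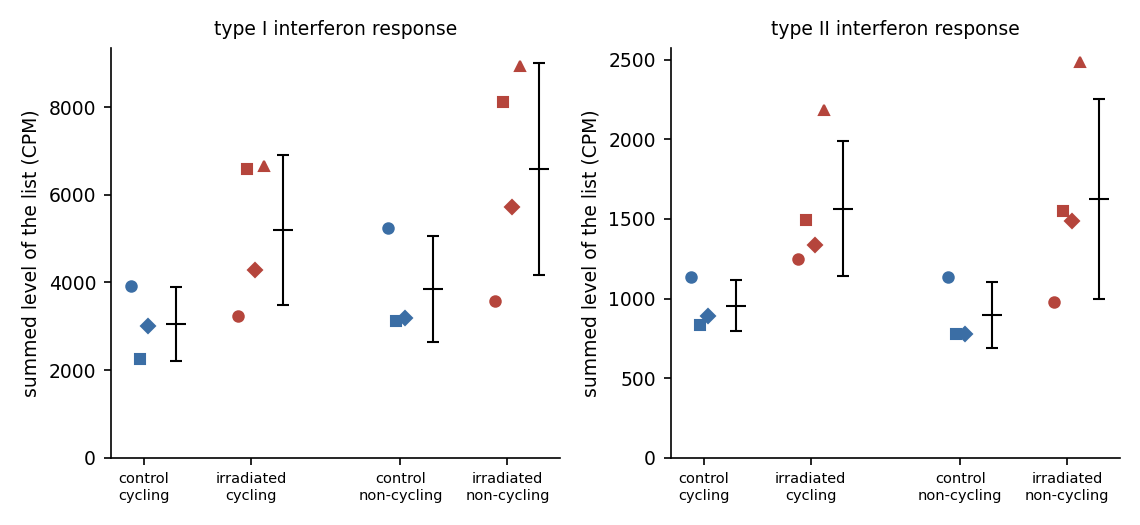
Summed level in CPM of the type I (left) and type II (right) interferon response lists in cycling and non-cycling macrophages; points are tumors (red, irradiated; blue, control) and bars are mean ± SD. In cycling macrophages the type II sum was 1247 to 2181 CPM in irradiated and 835 to 1136 CPM in control tumors, and the type I sums overlapped.

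The medians of phase, repair and p53 genes in cycling macrophages differed little between groups. The median log2 fold change was 0.03 over 42 S phase genes, -0.09 over 52 G2/M genes, 0.06 over 30 DNA repair genes and 0.03 over 20 p53 targets. Of the 20 p53 targets 1 was higher without overlap between groups, near the 3.90% of all genes, namely Bbc3, the proapoptotic gene for Puma, at 26.1 to 32.5 CPM in irradiated and 22.5 to 23.0 CPM in control tumors (0.36 ± 0.15, edgeR adjusted P = 0.789). Of the 52 G2/M genes 1, the microtubule depolymerase Kif2c, was lower without overlap (27.7 ± 3.77 against 37.8 ± 3.22 CPM, edgeR adjusted P = 0.715), and 2.72% of all genes were lower without overlap. Of the G2/M genes, 37 of 52 were below 0 in cycling macrophages, against 5040 of 10038 over all genes. In non-cycling macrophages 35 of 40 were below 0 (median -0.39), against 6195 of 12060. There 3 of 40 were lower without overlap, against 374 of 12060. The difference between gates was above 0 for 46 of 52 (median 0.27), against 5843 of 11978. In each comparison 0 G2/M genes passed the adjusted test. In cycling macrophages the 8 MHC class II genes had a median of 0.24 with 0 past the test.

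Whether irradiated and control tumors differed by another amount in cycling than in non-cycling macrophages was tested with the tumor as a block. Of 11978 genes, 1 (0.00835%) passed, Thbs4, a matrix thrombospondin (log2 difference 6.18 ± 0.57, edgeR adjusted P = 4.43e-06). Cycling macrophages of irradiated 1 held 163 UMIs of Thbs4, of which 159 were in 1 cell that Scrublet had marked as a doublet. The other tumors had 0 to 6 UMIs in cycling cells. Without the marked cells 0 genes passed (smallest edgeR adjusted P = 0.138).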

How the data were processed

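For each of 7 tumors the authors deposited a matrix of raw UMI counts (genes by cells), from 10x Genomics 3' libraries. The headers name Cell Ranger 8.0.0 and the labels mm10. Intron counting is not given in the sources used here. Of 33696 features, 443 of 445 symbols in 25 gene lists were found. Members and lists were chosen with earlier results of these data known. Passing cells were gated as stated, counts were summed per tumor, and irradiated and control tumors were compared with edgeR 4.0.16 (filterByExpr, TMM, quasi-likelihood; limma 3.58.1, R 4.3.3) and, as an alternative, DESeq2 1.42.0. Shares were compared with exact permutation tests over tumors (scipy 1.17.1). Tested on simulated data with 200 genes changed by 2 (log2), edgeR recovered 95.5% in cycling (10046 genes), 94.0% in non-cycling (12068) and 87.0% for the interaction (11988). The simulated spread followed the trend over all genes rather than each gene's own spread, and smaller changes were not simulated. Recovery in the real tumors is thus not known from it. Named genes were the 8 highest and 12 lowest ratios (at least 50 CPM, 1 sign), 4 per list (at least 20 CPM), fixed regulators, the 5 smallest P per gate and 3 per list after irradiation. Other members named with their counts were chosen after their values were seen. Some genes that the rule names are not reported here. P values judge differences with the tumor, not the cell, as the replicate, and concern these tumors only.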

Additional observations from a re-analysis of the deposited data

Results flagged for a closer look

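Values of the 4 irradiated tumors were searched for 1 tumor far from the other 3 (Dixon's test at 95%). Of 140 sets of values, 12 held such a tumor, and chance alone marks about 1 in 20. Ratios here are log2 of cycling over non-cycling macrophages.

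The median ratio of the p53 target list was -0.0099 in irradiated 1, against -0.47 to -0.44 in the others. Cdkn2d was at 1.23 in irradiated 1 (1.65 to 1.71 in the others), Mx1 at -0.23 (-0.66 to -0.61) and Thbs1 at -1.57 (-1.02 to -0.96). In cycling macrophages, Ifit3b was at 10.8 CPM in irradiated 1 and at 32.7 to 36.1 CPM in the others. The median ratio of the tumor cell list was 0.47 in irradiated 3, against -0.37 to -0.23, with Col1a1 at 0.66 (-0.56 to -0.38) and Col3a1 at 0.50 (-0.79 to -0.64). Ccl8 was at -2.28 in irradiated 3 (-1.42 to -1.35) and F13a1 at -2.004 in irradiated 2 (-0.86 to -0.72). Knl1, a kinetochore scaffold, was at 6.59 in irradiated 4 (5.86 to 5.91), where Gbp5 was also at 30.2 CPM in cycling macrophages (13.9 to 16.6 CPM).

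Thbs4 differed between gates in its response to irradiation (log2 difference 6.18, edgeR adjusted P = 4.43e-06). In cycling macrophages of irradiated 1, 159 of its 163 UMIs came from 1 cell that Scrublet had marked.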

How the results depend on the processing

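The irradiated minus control difference of the cycling share turned from 2.91 to -0.616 when cells were thinned to 5000 UMIs and shallower ones left out. It ran from 1.95 to 4.45 when 1 tumor was left out (lowest without irradiated 4, highest without irradiated 1). That of the G2/M-rich share ran from -8.63 (without control 1) to -0.465 (without control 2). Macrophages minus tumor cells was -12.2 without thinning and -3.27 to -2.01 without 1 tumor. Genes called between irradiated and control tumors in cycling macrophages numbered 0, but 16 with DESeq2, 47 over every gene with at least 1 UMI, 1 without Scrublet-marked cells, 1 with the library side of 7000 cells as a term, and 0 to 9 without 1 tumor. In non-cycling macrophages they numbered 0 to 2 without 1 tumor (2 without irradiated 1). For the interaction, 1 gene became 31 over every gene, 0 without Scrublet-marked cells, and 1 to 5 without 1 tumor, where Thbs4 was lost without irradiated 1 (Ank2 was called) and 5 passed without control 3. Genes lower in cycling cells numbered 121, but 36 against depth-matched cells, 195 with at least 3 UMIs of Mki67 and Top2a, and 207 over every gene. In cycling macrophages, the irradiated over control log2 fold change of H2ax turned from -0.31 to 0.070 with the library side as a term. That of Sesn2 turned from 0.38 to -0.045 with the same term. For Gdf15 it turned from -0.34 to 0.16 without cells holding a tumor-gene UMI. Without 1 tumor this fold change of Gdf15 ran from -0.76 to 0.14 (above 0 without control 3). That of H2-Ab1 in non-cycling cells ran from -0.16 to 0.74 (below 0 without irradiated 1 or control 1). The cause was not tested.

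Same-numbered irradiated and control replicates did not deviate together (correlations -0.341, -0.175 and -0.0873 in cycling macrophages), and the labels do not say that a number marks a shared batch. With a replicate block over 3 pairs the difference was 1.95 for the cycling share and -3.27 for the G2/M-rich share, and 0 genes passed in either gate.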
